A study of Mus musculus with 30 samples.

Results

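Staphylococcaceae and Aerococcaceae are 2 families of Gram-positive cocci, and all of their 16S rRNA sequences in the feces of 30 mice were examined. A sequence, called an amplicon sequence variant (ASV) here, was taken where the taxonomy deposited with the filtered count table named either family and at least 1 count was present in the 30 mice. This gave 922 of 12980 ASVs, 637 of Staphylococcaceae and 285 of Aerococcaceae, and they held 17.6% of all counts. The female C57BL/6 mice fell into 5 groups of 6. Control mice ate a normal diet and model mice a high-fructose diet (HFru), and both received saline by gavage. The 3 treated groups ate HFru and received a compound by gavage, either salidroside or tyrosol or hydroxytyrosol, given at 50, 23 and 26 mg/kg in this order, doses that the study set equal in moles. Salidroside is the glucoside of tyrosol, and hydroxytyrosol is tyrosol with an additional phenolic hydroxyl. The mice were 6 weeks old at purchase, and the feeding lasted 8 weeks in the methods and 12 weeks in the figure legends. Stool was collected in an empty cage without bedding, and the labels give no cage or sequencing batch, so p-values measure the spread between these mice, and a shared cage cannot be told apart from a group.

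Staphylococcaceae and Aerococcaceae are facultatively anaerobic or aerobic, mostly salt-tolerant bacteria. Staphylococcus lives on skin and mucosa, Macrococcus on animal skin and in dairy foods, and Jeotgalicoccus and Salinicoccus are known from fermented, saline and animal-house environments. Aerococcus and Facklamia are catalase-negative or weakly reacting cocci of air, dust, animals and the urinary tract, and Atopostipes was described from swine manure. In the mouse gut these genera are usually minor beside obligate anaerobes, and they are common in the dust, feed and litter around animals.

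The deposited taxonomy gave 13 genera, counting the ASVs without a genus name as 1 unclassified genus in each family. Of the Staphylococcaceae, Jeotgalicoccus had 124 ASVs and 54.4% of the counts of both families, Staphylococcus had 76 ASVs and 28.2%, and Salinicoccus, Macrococcus and the unclassified Staphylococcaceae held 2.94%, 0.719% and 1.65%. Of the Aerococcaceae, Aerococcus had 93 ASVs and 8.84%, Atopostipes 61 ASVs and 1.67%, Facklamia 27 ASVs and 0.585%, and the unclassified Aerococcaceae 99 ASVs and 0.990%. Atopococcus, Alloiococcus, Abiotrophia and Granulicatella had between 2 and 5 counts each in all 30 mice, so nothing is compared for them. Atopostipes, Atopococcus, Alloiococcus and Granulicatella are placed in Carnobacteriaceae by other taxonomies, and they are kept here as the deposited taxonomy has them. The same taxonomy put 82 ASVs named Staphylococcus saprophyticus in Planococcaceae, and these are outside the families (3857 counts, at most 0.992% of a mouse). The 9 genera beside Jeotgalicoccus, Staphylococcus, Aerococcus and Facklamia held 7.98% of the counts of both families.

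The filtered table held 41862 to 106609 counts per mouse, with fewer in the control mice (median 73619) than in the model mice (median 98991). A count of 0 allows up to 3 counts, which was 0.00281% to 0.00717% of a mouse's total. Intervals on the share of a single mouse are 95% Wilson intervals, and like this limit they cover counting error only. Shares are percentages of all counts of a mouse, not cell numbers, since the genera carry different numbers of 16S rRNA genes and a rise of one taxon lowers the share of the others.

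Both families together ran from 0.771% to 73.7% of a mouse's counts. In the control mice they made up 1.49% at the lowest, 4.84% at the median and 7.85% at the highest, and in the model mice 0.934%, 10.7% and 14.9%. In the treated mice the medians were 1.15% with salidroside, 9.74% with tyrosol and 17.8% with hydroxytyrosol, and the highest values were 64.6%, 73.7% and 67.7%. No control or model mouse exceeded 20%, whereas 7 mice of the treated groups did, namely mice 3 and 4 of the salidroside group, mice 1 and 6 of the tyrosol group and mice 3, 4 and 5 of the hydroxytyrosol group. The treated groups therefore held their families very unevenly, and their means were 16.7 ± 26.5% (SD, n = 6) with salidroside, 26.8 ± 28.4% with tyrosol and 26.9 ± 26.9% with hydroxytyrosol.

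**Figure D1:**
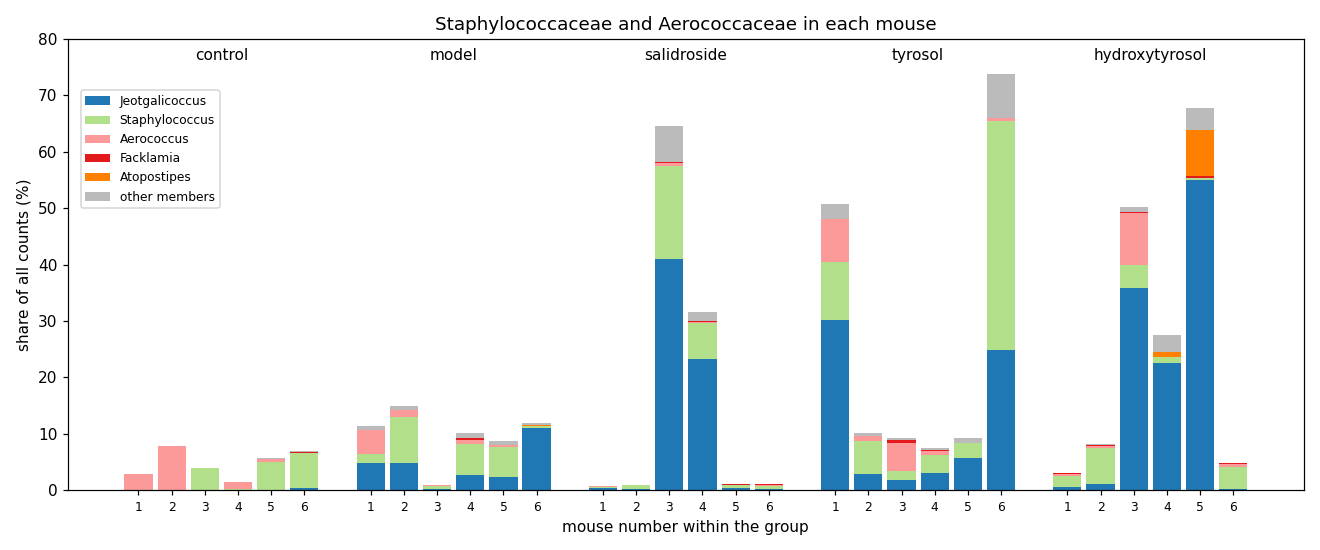
Share of all counts (%) of both families in each of the 30 mice, by mouse number within its group, with the bar divided into Jeotgalicoccus, Staphylococcus, Aerococcus, Facklamia, Atopostipes and the other members. The 7 mice above 20% are all in the 3 treated groups, and Jeotgalicoccus is the largest piece in 6 of them and Staphylococcus in mouse 6 of the tyrosol group.

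Jeotgalicoccus had the largest log2 fold change of the 7 member genera tested between the diets. Its share in the 6 control mice was 0% at the lowest, 0.0209% at the median and 0.375% at the highest, and in the 6 model mice 0.224%, 3.77% and 11.02%. The groups overlapped only in model mouse 3 (0.224%), which lay below control mouse 6 (0.375%), so the model mouse was the higher in 35 of the 36 pairs. The test on counts was edgeR's quasi-likelihood F test over the 92 genera with 10 or more counts in 4 or more of these 12 mice, and p-values were adjusted over all of them by Benjamini-Hochberg. Jeotgalicoccus was higher in model mice with a log2 fold change of 5.69 (SE 1.84, 95% interval 2.01 to 9.38, adjusted p = 0.0243). It reached 10 counts in 3 control mice and in all 6 model mice, so it passed the filter through the model mice, and the call is given as a description. The difference in mean share, 4.24 percentage points, had an exact two-sided permutation p of 0.00433 (adjusted p = 0.0498 over the 92 genera), where 6 mice against 6 can go no lower than 0.0022. Without control mouse 2 or control mouse 4 the adjusted p of edgeR was 0.0602 or 0.0589, and with no filter on low counts it was 0.0782.

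Macrococcus followed the same order at a far lower level. It had no counts in 5 control mice and 0.0155% in control mouse 6, and in the model mice it ran from 0.00691% over a median of 0.108% to 0.198%. Again only model mouse 3 lay within the range of the controls. Macrococcus was higher with a log2 fold change of 5.11 (SE 1.84, 95% interval 1.43 to 8.80, adjusted p = 0.0360), which rests on 13 control counts, all in 1 mouse. Macrococcus too passed the filter through the model mice, so a higher value was the only difference that could be called. Its exact permutation test gave p = 0.00433 (adjusted p = 0.0498). The edgeR call was lost without control mice 1, 2, 3 or 4 or without model mice 1 or 6, with adjusted p-values from 0.0617 to 0.0817, and with no filter on low counts (0.110).

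These were 2 of the 7 member genera tested between model and control mice, both higher, where 25% of all 92 genera were called and 13% were called as higher. By the exact permutation test the same 2 of 7 had an adjusted p under 0.05 (8.7% of all genera), and 0 of 7 had shares without any overlap (6.52% of all genera). The other members of Staphylococcaceae had the same sign but did not pass edgeR's adjusted threshold. Salinicoccus, a salt-loving relative of Jeotgalicoccus, had a median of 0.000596% in control and 0.166% in model mice (log2 fold change 3.54, SE 1.7, adjusted p = 0.105). The unclassified Staphylococcaceae had medians of 0.0239% and 0.292% (log2 fold change 3.19, SE 1.48, adjusted p = 0.0983). By DESeq2, and by edgeR with a minimum of 50 counts, 4 member genera were called, and Salinicoccus and the unclassified Staphylococcaceae were the additional ones. Salinicoccus reached 10 counts in 1 control mouse and the unclassified Staphylococcaceae in 3, so all 4 of these genera passed the filter through the model mice, and the counts of members called are no support for a direction. All 3 of Jeotgalicoccus, Macrococcus and Salinicoccus had their highest control value in control mouse 6.

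Staphylococcus gave no such contrast. Its share was 0.102% at the lowest, 2.02% at the median and 6.19% at the highest in the control mice, and 0.389%, 3.49% and 8.14% in the model mice. The control mice were in 2 sets, with mice 1, 2 and 4 between 0.102% and 0.134% and mice 3, 5 and 6 between 3.91% and 6.19%, so the control range covered most of the model range. The log2 fold change was 0.73 (SE 1.48, 95% interval -2.23 to 3.68, adjusted p = 0.727), an interval that leaves room for a large change either way. Jeotgalicoccus made up 0% to 13.8% of the counts of Jeotgalicoccus and Staphylococcus together in the control mice (median 3.28%) and 30.03% to 96.6% in the model mice (median 35.3%), and these ranges did not overlap. This ratio is free of the other taxa of the community. It follows from the shares of both genera and was not tested on its own. In control mice 1, 2 and 4 it rests on 75, 85 and 65 counts of the 2 genera together.

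Among the Aerococcaceae, neither Aerococcus nor Facklamia passed the test between the diets. Aerococcus had 0.0370% at the lowest, 0.991% at the median and 7.69% at the highest in control mice, and 0%, 0.574% and 4.20% in model mice (log2 fold change -1.15, SE 1.56, 95% interval -4.27 to 1.96, adjusted p = 0.620). The difference in mean share, -0.979 points, turned to 0.136 without control mouse 2. Facklamia was at 0% in 3 control mice and reached 0.104%, and in model mice it ran from 0.00691% to 0.268% with a median of 0.0760% (log2 fold change 1.66, SE 1.60, adjusted p = 0.474). In the controls the 3 mice with the least Staphylococcus had 1.31% to 7.69% Aerococcus and the other 3 had 0.0370% to 0.670%.

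**Figure D2:**
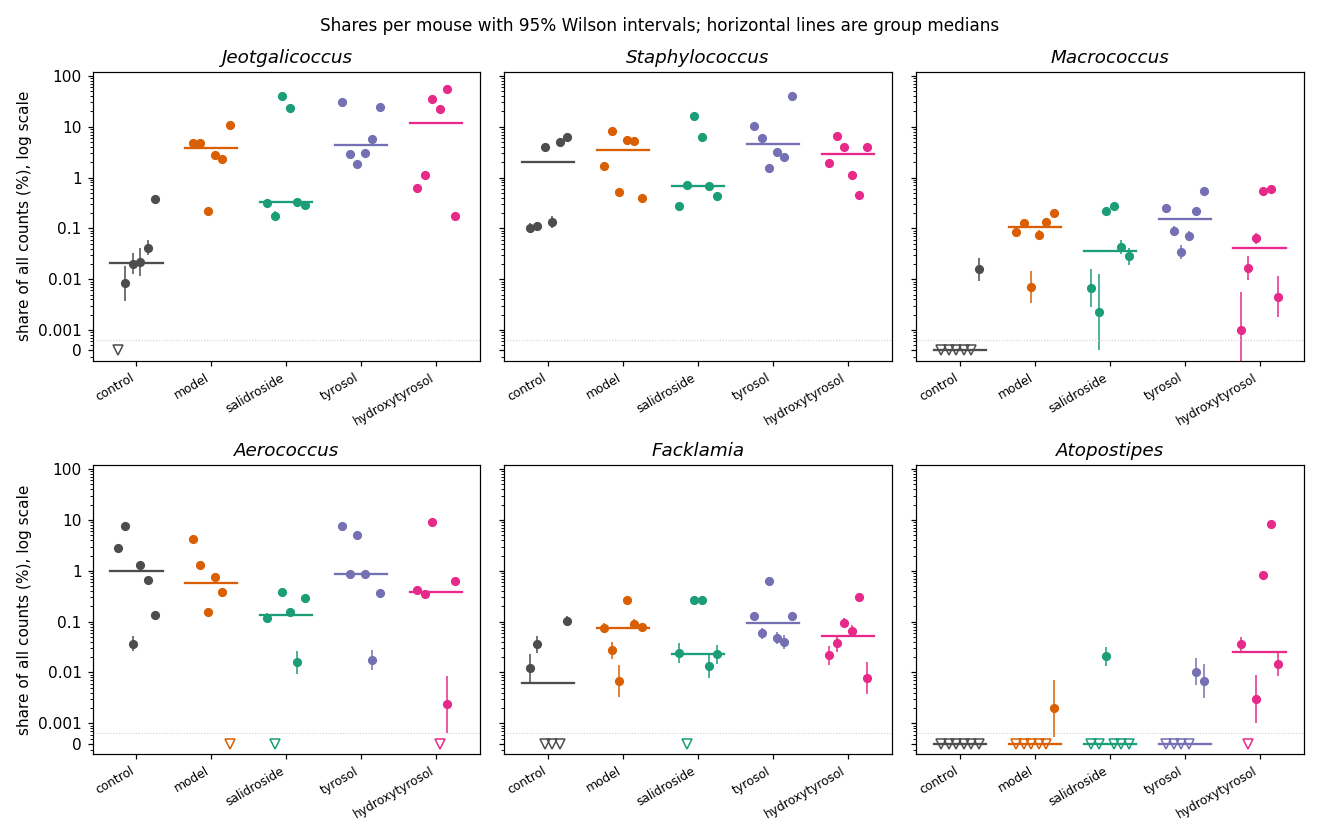
Share of all counts (%, log scale) of 6 member genera in each mouse of the 5 groups, with 95% Wilson intervals; open triangles on the line marked 0 are mice with no counts, and horizontal lines are group medians. Jeotgalicoccus and Macrococcus are low or at 0 in the control mice and higher in nearly all model mice, whereas the ranges of Staphylococcus, Aerococcus and Facklamia overlap widely, and Atopostipes exceeds 0.1% in 2 hydroxytyrosol mice only.

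The families as wholes were not called between model and control mice (0 of 2, where 19% of 58 families were), and 0 of 2 had an unadjusted p under 0.05 by edgeR (DESeq2 was not run on families). Staphylococcaceae had a median share of 2.07% in control and 8.62% in model mice (log2 fold change 1.75, SE 1.41, adjusted p = 0.400), and without control mouse 6 it was called (3.74, adjusted p = 0.0377). Aerococcaceae had medians of 0.993% and 0.763% (log2 fold change -0.06, SE 1.21, adjusted p = 0.964). At the same time the median log2 fold change over all 92 genera was 0.38 after TMM scaling and -0.06 without it, beside 5.69 for Jeotgalicoccus. The model group is shared by this comparison and the following 3, and these are therefore not independent of each other.

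Salidroside changed no member genus against model mice by the test (0 of 8, where 4.35% of 92 genera were called by edgeR), with 0 at an unadjusted p under 0.05 and 0 by DESeq2. DESeq2 gave no adjusted p there for Salinicoccus and the unclassified Staphylococcaceae. Jeotgalicoccus was between 0.173% and 0.329% in 4 salidroside mice and at 23.2% and 40.9% in mice 4 and 3, so that 4 mice lay below all model mice but mouse 3 and 2 lay above the highest. Its log2 fold change of 1.81 (SE 1.48, 95% interval -1.22 to 4.84, adjusted p = 0.595) turned to -0.56 without mouse 3. Staphylococcus showed the same division, with 0.277% to 0.705% in the 4 mice and 6.37% and 16.6% in mice 4 and 3. Its log2 fold change was 0.75 (SE 1.37, 95% interval -2.05 to 3.55, adjusted p = 0.897), and -1.81 without mouse 3. Aerococcus had 0% at the lowest, 0.138% at the median and 0.383% at the highest, against 0%, 0.574% and 4.20% in model mice (log2 fold change -2.18, 95% interval -5.25 to 0.89, adjusted p = 0.515, exact permutation p of the mean share 0.0866, and 0.0152 where shares were taken of all counts but those of Acinetobacter). Facklamia reached 0.266% and 0.261% in the same mice 3 and 4 and at most 0.0241% in the other 4 (log2 fold change 0.35, SE 1.36, adjusted p = 0.928).

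Tyrosol likewise gave 0 of 8 called members against model mice (2.04% of 98 genera by edgeR), 0 at an unadjusted p under 0.05 and 0 by DESeq2. Facklamia and the unclassified Aerococcaceae had no adjusted p from DESeq2 there. Jeotgalicoccus had 1.83% at the lowest, 4.34% at the median and 30.2% at the highest (log2 fold change 0.39, SE 0.995, 95% interval -1.68 to 2.46, adjusted p = 0.814). Staphylococcus had 1.52%, 4.54% and 40.6% (log2 fold change 0.68, SE 1.04, 95% interval -1.49 to 2.84, adjusted p = 0.717). The values are relative to a median over all genera of -0.95 after TMM and -0.21 without it, and without TMM they were 1.40 and 1.58. Salinicoccus had a median of 0.273% and reached 4.92% in mouse 6 (log2 fold change 1.91, SE 1.13, adjusted p = 0.348). Aerococcus had 0.0176%, 0.857% and 7.51% (log2 fold change 0.92, SE 1.298, adjusted p = 0.702). Facklamia was present in all 6 mice, from 0.0393% to 0.629%, and the log2 fold change of 0.37 (SE 1.205, adjusted p = 0.841) turned to -1.36 without mouse 3.

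Atopostipes was the 1 member of 9 called between hydroxytyrosol and model mice (4.17% of 96 genera by edgeR, 3.12% as higher). It passed the filter through the hydroxytyrosol mice alone, so that no other direction could be called, and its values are a description. Atopostipes was found in 5 of the 6 hydroxytyrosol mice, with 8.15% in mouse 5, 0.825% in mouse 4 and 0.0365% or less in the other 4. In the other groups it was at 0% in all control mice and reached 0.00199% in model, 0.0207% in salidroside and 0.0103% in tyrosol mice. The hydroxytyrosol mice held 7640 counts, 90.3% of them in mouse 5, and the model mice 2 counts, a ratio of the pooled shares of 4215 (95% counting interval 1166.5 to 34814). Against the control mice, which had 0 counts, the pooled share was at least 2064-fold higher, taking 3 counts over the control group as the floor. The log2 fold change against model mice was 10.79 (SE 2.59, adjusted p = 0.0321) and the exact permutation p of the mean share was 0.0152 (adjusted p = 0.132). It was not tested with a minimum of 50 counts, in the rarefied table or without hydroxytyrosol mice 1, 4, 5 or 6, and its adjusted p was 0.0584 to 0.0738 without model mice 4, 5 or 6.

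The remaining members did not pass between hydroxytyrosol and model mice. Jeotgalicoccus had 0.173% at the lowest, 11.8% at the median and 54.9% at the highest (log2 fold change 1.69, SE 1.37, 95% interval -1.21 to 4.59, adjusted p = 0.565), and mice 3, 4 and 5 exceeded every model mouse whereas mice 1, 2 and 6 lay at 1.13% or less. Staphylococcus stayed between 0.448% and 6.43% with a median of 2.94% (log2 fold change -0.37, SE 1.04, 95% interval -2.56 to 1.83, adjusted p = 0.913). The unclassified Aerococcaceae were at 2.80% and 1.94% in mice 5 and 4, the mice with the most Atopostipes, and at 0.0382% or less in the other 4 (log2 fold change 4.72, SE 2.22, adjusted p = 0.240). Aerococcus was at 0 counts in mouse 4 and 2 counts in mouse 5, whereas mouse 3 had 9.23% (log2 fold change 0.43, SE 1.66, 95% interval -3.09 to 3.94, adjusted p = 0.918). Facklamia ran from 0.00796% to 0.30% (log2 fold change -0.75, SE 1.02, adjusted p = 0.801).

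**Figure D3:**
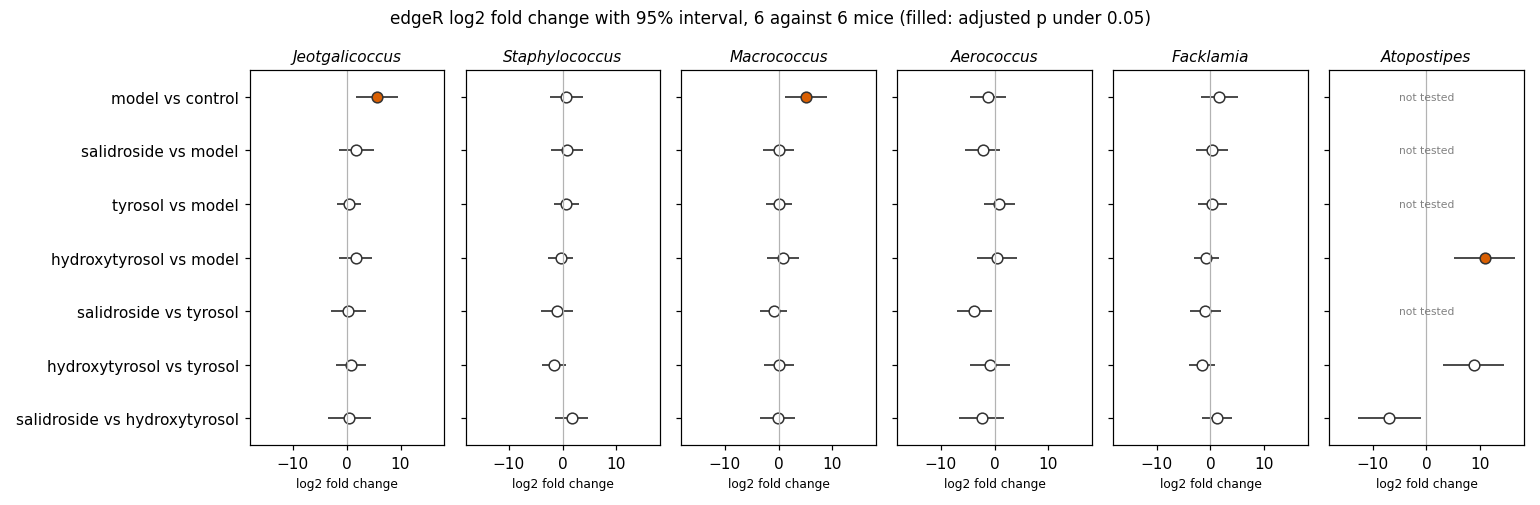
edgeR log2 fold change (first group over second) with its 95% interval for 6 member genera in the 7 comparisons of 6 against 6 mice; filled points have an adjusted p under 0.05, and "not tested" marks a genus below the count filter. The filled points are Jeotgalicoccus (5.69) and Macrococcus (5.11) in model against control mice and Atopostipes (10.79) in hydroxytyrosol against model mice, and most other intervals include 0.

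The compounds were compared with each other in 3 pairs. Between salidroside and tyrosol, which differ by the glucose, 0 of 8 member genera were called by edgeR (0% of 89), 1 had an unadjusted p under 0.05 and 0 were called by DESeq2. That 1 was Aerococcus, with medians of 0.138% and 0.857% (log2 fold change -3.73, SE 1.47, 95% interval -6.85 to -0.61, adjusted p = 0.327, exact permutation p of the mean share 0.0260, adjusted p = 0.358). Salidroside mice lay below tyrosol mice for Aerococcus in 31 of the 36 pairs. DESeq2 gave no adjusted p in this comparison for Staphylococcus, Salinicoccus and the unclassified Staphylococcaceae. The intervals were wide for Jeotgalicoccus (0.31, 95% interval -2.73 to 3.34), for Staphylococcus (-1.05, -3.77 to 1.67) and for Facklamia (-0.96, -3.63 to 1.703), and these intervals span changes of several fold in either direction.

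Between hydroxytyrosol and tyrosol, which differ by the phenolic hydroxyl, 0 of 9 members were called by edgeR (1.09% of 92), 2 had an unadjusted p under 0.05 and 2 were called by DESeq2. These were Atopostipes, which again passed the filter through the hydroxytyrosol mice, in both tools (log2 fold change 8.75, SE 2.55, adjusted p = 0.120 by edgeR and 0.00108 by DESeq2) and Salinicoccus (-2.76, SE 1.17, adjusted p = 0.230 and 0.0260). Salinicoccus had a median of 0.149% with hydroxytyrosol and 0.273% with tyrosol, and the ranges overlapped. Jeotgalicoccus gave 0.81 (95% interval -1.80 to 3.41), Staphylococcus -1.60 (-3.62 to 0.42), Aerococcus -0.86 (-4.37 to 2.65) and Facklamia -1.58 (-3.78 to 0.63). Between salidroside and hydroxytyrosol, 0 of 9 were called by edgeR (0% of 85), 1 had an unadjusted p under 0.05 and 1 was called by DESeq2, in both cases Atopostipes (log2 fold change -6.88, SE 2.66, adjusted p = 0.301 by edgeR and 0.0191 by DESeq2), which here too passed the filter through the hydroxytyrosol mice. Jeotgalicoccus gave 0.53 (95% interval -3.24 to 4.29), which turned to between -0.88 and -0.18 without TMM, with singleton pairing, with all 30 mice, in the rarefied and unfiltered tables and with the mouse number as a block. The other values were Staphylococcus 1.69 (-1.19 to 4.56), Aerococcus -2.41 (-6.34 to 1.52) and Facklamia 1.25 (-1.39 to 3.90). Between salidroside and hydroxytyrosol too, DESeq2 gave no adjusted p for Staphylococcus, Salinicoccus and the unclassified Staphylococcaceae. Against model mice 0 of 2 families were called with salidroside (15.1% of 53), with tyrosol (3.33% of 60) and with hydroxytyrosol (11.9% of 59), with 0 at an unadjusted p under 0.05. Between the compounds 0 of 2 were called for salidroside against tyrosol (2.04% of 49), hydroxytyrosol against tyrosol (1.82% of 55) and salidroside against hydroxytyrosol (0% of 50), and Aerococcaceae had an unadjusted p under 0.05 for salidroside against tyrosol (log2 fold change -2.82, SE 1.11, adjusted p = 0.188) and against hydroxytyrosol (-3.22, SE 1.13, adjusted p = 0.158).

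Across all 5 groups at once, 4 of the 9 member genera with enough counts had an adjusted p under 0.05 by a Kruskal-Wallis test with 100000 permutations, where 31.3% of 131 genera did. They were Salinicoccus (H = 14.1, adjusted p = 0.0141), Macrococcus (H = 13.6, adjusted p = 0.0170), Jeotgalicoccus (H = 13.2, adjusted p = 0.0217) and Atopostipes (H = 13.2, adjusted p = 0.0254). Of these, Atopostipes reached 10 counts in 4 hydroxytyrosol mice and 2 other mice and so entered through the group where it was high, and its value is a description. Staphylococcus (H = 3.76, adjusted p = 0.568), Aerococcus (H = 5.67, adjusted p = 0.358) and Facklamia (H = 6.90, adjusted p = 0.245) did not pass. By median, Jeotgalicoccus went from control (0.0209%) over salidroside (0.325%), model (3.77%) and tyrosol (4.34%) to hydroxytyrosol (11.8%), and Staphylococcus from salidroside (0.691%) over control (2.02%), hydroxytyrosol (2.94%) and model (3.49%) to tyrosol (4.54%). Of the neighbours in these orders that were compared with each other, none differed beyond the spread between mice by edgeR for either genus (salidroside and model, model and tyrosol, and tyrosol and hydroxytyrosol for Jeotgalicoccus, hydroxytyrosol and model and model and tyrosol for Staphylococcus).

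A few ASVs carried most of these counts. The 21 member ASVs found in at least 15 mice held 90.5% of the counts of both families, and the 631 found in a single mouse (68.4% of the 922) held 1.26%. For Jeotgalicoccus the leading ASV was ASV_48019, named Jeotgalicoccus psychrophilus in the file, with 205421 counts in 29 mice and 82.4% of its genus, followed by ASV_88559 with 5.10%. The mean share of ASV_48019 was 0.05005 ± 0.0858% (SD, n = 6) on the control diet against 3.42 ± 3.16% in the model group (edgeR over ASVs, log2 fold change 8.22, SE 2.71, adjusted p = 0.00937). In the single mice it made up a median of 82.4% of Jeotgalicoccus in the model group and 92.1% in the hydroxytyrosol group, with ranges of 62.4% to 88.5% and 63.1% to 96.1%. For Staphylococcus the leading ASVs were ASV_74631 (100836 counts, all 30 mice, 77.9% of the genus) and ASV_73934 (8.86%, 18 mice), both named Staphylococcus sciuri, a species of animals now often placed in Mammaliicoccus. ASV_74631 held a median of 69.9% to 84.3% of Staphylococcus in each of the 5 groups.

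For Aerococcus, ASV_75238 held 90.2% of the genus in 27 mice and ASV_55535 held 1.504% in 6 mice, both without a species name. For Facklamia, ASV_23269 held 74.0% in 26 mice and ASV_14854 held 8.87% in 7 mice. Atopostipes suicloacalis was the only species name of Atopostipes, and its leading ASV_62041 was present in 3 mice. The number of Staphylococcaceae ASVs per mouse, counted in the rarefied table of 39768 counts, was 15.2 ± 13.6 (SD, n = 6) in control, 43.5 ± 17.9 in model, 41.0 ± 37.3 in salidroside, 85.8 ± 51.3 in tyrosol and 47.0 ± 31.1 in hydroxytyrosol mice, with no test. For Aerococcaceae it was between 9.50 and 22.8 in the 5 groups.

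Single ASVs were called between model and control mice for 5 of 22 members, all higher, where 30.2% of 411 ASVs were called and 7.06% as higher. With the mouse number as a block, or with no filter on low counts, 0 were called, with all 30 mice in 1 model 16, and without single mice 3 to 10. The leading ASV_48019 was 1 of the 5, and the others were ASV_68774, ASV_7178 and ASV_43208 of Jeotgalicoccus and ASV_45916 of Macrococcus. These 4 had 0 counts in all control mice and were present in 4 or 5 model mice, with pooled shares at least 43.8-fold to 194-fold higher against a floor of 3 counts over the control group. Such bounds, here and below, cover counting error only, not the spread between mice. All 5, ASV_48019 included, passed the filter through the model mice, so higher was the only call open to them, and their calls add nothing to their counts. Salidroside against model and against tyrosol gave 0 called of 28 and 0 of 45 member ASVs by edgeR, with 1 and 2 at an unadjusted p under 0.05 (4.19% of 358 and 0% of 394 ASVs were called). Tyrosol against model gave 2 of 47, both higher (8.49% of 424, 7.55% as higher), ASV_26006 of the unclassified Staphylococcaceae and ASV_41897 of Macrococcus. Both were in all 6 tyrosol mice, in 2 salidroside mice and in no other mouse, at most 0.237% and 0.147%, and their pooled shares were at least 106-fold and 85.6-fold above the floor of the model group. Their medians in the tyrosol mice were 0.0214% and 0.0339%. These 2 ASVs passed the filter through the tyrosol mice alone, so higher was the only call open to them. Their call and absence of overlap (both together in 4.01% of all ASVs tested) are given as a description. With no filter 0 were called, and 1 was called in the rarefied table.

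A set of ASVs that most tyrosol mice carried had no counts in any hydroxytyrosol mouse. Against tyrosol mice, 16 of 43 member ASVs were called, all lower, where 27% of 319 ASVs were called and 23.2% as lower. All 16 were at 0 counts in the 6 hydroxytyrosol mice and were present in 4 to 6 of the tyrosol mice. Most of the 16 had 0 counts in all control mice as well, and ASV_26006 and ASV_41897 in all model mice too, so the absence was not particular to the hydroxytyrosol group. The 16 passed the filter through the tyrosol mice alone, so lower was the only call open to them, and the count is a description. They came from Staphylococcus (4), the unclassified Staphylococcaceae (4), Aerococcus (4), Jeotgalicoccus (2) and Macrococcus (2). The pooled shares were at least 19.6-fold to 572-fold lower, with a floor of 3 counts over the hydroxytyrosol group. This bound covers counting error only, not the spread between mice. The number called was 0 with no filter, 6 in the rarefied table, 25 with all 30 mice in 1 model and 8 to 18 without single mice. Aerococcus itself had 0 counts in hydroxytyrosol mouse 4 and 2 counts in mouse 5. The largest was ASV_27040, the Staphylococcus sciuri ASV that was also the 1 called of 24 against model mice (32.4% of 290 ASVs, 24.1% as lower) and the 1 called of 24 between salidroside and hydroxytyrosol (12.4% of 225, 7.56% as higher with salidroside). In these comparisons too it passed the filter through the group that carried it. With no filter 0 member ASVs were called in either, and with all 30 mice in 1 model 23 and 25. Between salidroside and hydroxytyrosol, ASV_27040 fell below the filter without salidroside mouse 3, 4, 5 or 6 and was then not tested. Without mouse 3 the 1 member called was another ASV, lower with salidroside.

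ASV_27040 ran from 0.0299% over a median of 0.103% to 0.445% in the model mice and from 0.0598% over 0.118% to 1.56% in the tyrosol mice. It was in 4 salidroside mice, with at most 0.130%, and in 1 control mouse, with 0.142%. The 6 hydroxytyrosol mice had 0 counts of it, in the unfiltered table as well, beside 15379 counts of Staphylococcus in all. The shares of the model and hydroxytyrosol mice, and of the tyrosol and hydroxytyrosol mice, did not overlap (called without overlap were 5.52% and 5.64% of all ASVs tested), which for an ASV at 0 in 1 group is a description.

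The 4 main genera were correlated over the 30 mice in 6 pairs, with Pearson's r on log2 shares (0.5 counts added) and Spearman's rho on shares, and p-values from 100000 permutations adjusted over all 4753 pairs of 98 genera. The shares of one total are not free of each other. Jeotgalicoccus and Facklamia rose and fell together (r = 0.71, permutation p = 2e-05, adjusted p = 0.00179; rho = 0.79, p = 1e-05, the smallest the permutations can give, adjusted p = 0.00140). Without control mice 1 and 2, the farthest from the median of Jeotgalicoccus, r was 0.83, and over deviations from the group means it was 0.54 (permutation p = 0.00233). Within groups of 6, r was 0.93 in hydroxytyrosol mice (exact permutation p = 0.00278), 0.88 in salidroside (exact p = 0.0111), 0.64 in model (exact p = 0.169), 0.10 in control (exact p = 0.846) and -0.08 in tyrosol mice (exact p = 0.894). Spearman's rho was 1 in hydroxytyrosol (exact permutation p = 0.00278) and 0.83 in salidroside mice (exact p = 0.0583), and between -0.09 and 0.09 in the other groups. A positive rho with an adjusted p under 0.05 was found for 5.24% of all pairs.

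Jeotgalicoccus and Staphylococcus were also positively related over the 30 mice (r = 0.56, permutation p = 0.00105, adjusted p = 0.0200; rho = 0.50, p = 0.00596, adjusted p = 0.0671). Without control mice 1 and 2, r was 0.38 (permutation p = 0.0459), and over deviations from group means 0.49 (permutation p = 0.00686). The relation was not the same in every group. It was 0.96 in salidroside mice (exact permutation p = 0.0292), where it rests on mice 3 and 4. In tyrosol mice it was 0.82 (exact p = 0.0361), with mice 1 and 6 highest in both genera, and in control mice 0.74 (exact p = 0.0181). Spearman's rho in these groups was 0.60 (exact permutation p = 0.242), 0.71 (exact p = 0.136) and 0.94 (exact p = 0.0167). In model mice r was 0.19 (exact p = 0.810), and in hydroxytyrosol mice it was -0.58 (exact p = 0.214), where mouse 5 had the most Jeotgalicoccus and the least Staphylococcus. The difference between these groups was not tested.

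**Figure D4:**
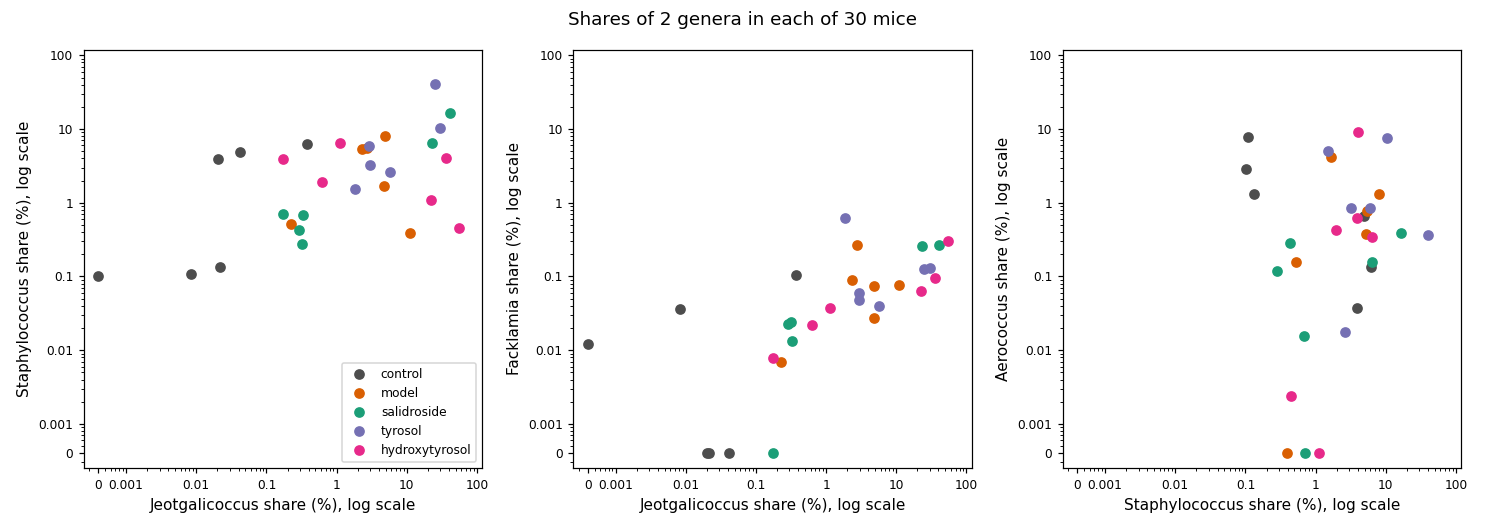
Shares (%, log scales, with counts of 0 on the line marked 0) of Jeotgalicoccus and Staphylococcus, of Jeotgalicoccus and Facklamia, and of Staphylococcus and Aerococcus in each of the 30 mice, coloured by group. The Jeotgalicoccus and Facklamia points rise together (rho = 0.79), whereas 3 control mice combine low Staphylococcus with high Aerococcus.

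The other 4 pairs did not pass the adjusted threshold over the 30 mice. They were Jeotgalicoccus and Aerococcus (r = -0.18, permutation p = 0.337, adjusted p = 0.614; rho = -0.06), Staphylococcus and Aerococcus (r = 0.19, permutation p = 0.324, adjusted p = 0.603; rho = 0.15), Staphylococcus and Facklamia (r = 0.31, permutation p = 0.0981, adjusted p = 0.314; rho = 0.42, adjusted p = 0.143) and Aerococcus and Facklamia (r = 0.14, permutation p = 0.468, adjusted p = 0.720; rho = 0.13). Staphylococcus and Aerococcus went in opposite directions in the control mice (r = -0.83, exact permutation p = 0.0597), and over the 24 mice on HFru alone, a subset chosen after seeing the data, r was 0.54 (permutation p = 0.00652). Aerococcus and Facklamia, both of Aerococcaceae, had r between -0.43 in hydroxytyrosol and 0.86 in salidroside mice (exact permutation p = 0.386 and 0.0208). Spearman's rho in these groups was -0.31 and 0.83 (exact permutation p = 0.564 and 0.0583).

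Outside the 2 families, the genera whose shares followed Jeotgalicoccus most closely over the 30 mice were Sporosarcina (rho = 0.74), Blautia (0.69), the unclassified Desulfovibrionaceae (0.61), Mucispirillum (0.59) and the Clostridium of Erysipelotrichaceae (0.56). Over deviations of log2 shares from the group means, Pearson's r with them was 0.60, 0.39, 0.42, 0.51 and 0.25. For Aerococcus the closest were sequences without a name below Bacteria (rho = 0.37), Kurthia (0.33), Clostridiales without a family name (0.33), Lysinibacillus (0.32) and Corynebacterium (0.29). These are descriptions, with no test.

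Relatives and companions of the families were counted from 2 lists. Of 10 other families of Bacillales and Lactobacillales, 6 were tested between model and control mice and 1 rose, Enterococcaceae (log2 fold change 5.39, SE 1.54, adjusted p = 0.0104). Of all 58 families 19% were called, with 6 of the 58 higher, and the median of the 6 listed was 0.97 beside 0.60 over all families. Against model mice, Carnobacteriaceae fell by 3.98 on the log2 scale with salidroside (SE 1.44, adjusted p = 0.0483), as 1 of 6 tested where 15.1% of 53 families were called, 6 of the 53 as lower. With tyrosol 0 of 6 were called and with hydroxytyrosol 0 of 6. Between the compounds 0 of the 5 or 6 tested were called. Of 17 other aerobic genera of skin, dust, litter and fermented food, 7 were tested between model and control mice and 1 rose, Psychrobacter (log2 fold change 4.92, SE 1.83, adjusted p = 0.0431). Of all 92 genera 25% were called and 13% were called as higher. The median of the 7 was 1.07 beside 0.38 over all genera. In the other 6 comparisons 0 of the 7 to 9 tested were called.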

How the data were processed

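Feces of 30 mice were analysed by 16S rRNA sequencing. The authors merged reads with FLASH, filtered them with QIIME and removed chimeras with UCHIME, and the submitters' notes name cutadapt. The deposited values are raw counts of reads, not normalized, in a filtered, an unfiltered and a rarefied table that also give the taxonomy. The version of the taxonomy is not given in the sources used here. The methods describe grouping at 97% identity, while the deposited log lists denoising. Groups and mouse numbers follow the labels, and the tables carry other numbers in 3 groups. No 2 mice of a group had identical counts.

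Counts of the filtered table were summed per genus and family and tested with edgeR 4.0.16 (quasi-likelihood, robust, TMM, R 4.3.3) over features reaching 10 counts in 4 or more of 12 mice. Standard errors of log2 fold changes were derived from the F statistic. DESeq2 1.42.0 was an alternative and left 2 or 3 members without an adjusted p in 4 comparisons. A call is an adjusted p (Benjamini-Hochberg, over all features tested) under 0.05. Shares were tested by two-sided exact permutation, and Kruskal-Wallis statistics and correlations by 100000 permutations (scipy 1.17.1). Correlation p-values were to be adjusted over the 6 pairs, and were adjusted over all pairs of genera instead. ASVs named are the 2 with the highest counts of the 4 main genera and called ASVs without overlap of shares, and ASV_62041 and the other called ASVs of the model and control comparison were named after their values were seen. The members, lists and tests were chosen with earlier results of these data known. The edgeR and exact permutation tests were tried on simulated data.

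The alternatives were no TMM, TMM with singleton pairing, the count minimum at 0 or 50, 1 model over all 30 mice, the rarefied and unfiltered tables, totals without Acinetobacter or without the pair, mean log10 shares, a pseudocount of 10, the mouse number as a block, and leaving out each mouse.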

Additional observations from a re-analysis of the deposited data

Results flagged for a closer look

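Of 54 sets of 6 shares, 25 had a highest mouse far from the other 5 by Dixon's gap to range ratio, where chance flags about 1 in 20 sets drawn from a normal distribution. The ratio was taken on untransformed shares. Control mouse 6 was highest for Jeotgalicoccus (0.375%, next 0.0419%), Salinicoccus (0.0670%), Macrococcus (0.0155%, next 0%) and Facklamia (0.104%). Control mouse 2 was highest for Aerococcus (7.69%) and Aerococcaceae (7.73%). Model mouse 1 stood out for Aerococcus (4.20%) and Aerococcaceae (4.28%), model mouse 4 for Facklamia (0.268%), and model mouse 6 for Atopostipes (0.00199%, 2 counts) and the unclassified Aerococcaceae (0.110%).

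Salidroside mouse 3 was highest for Staphylococcus (16.6%), Salinicoccus (4.23%), the unclassified Staphylococcaceae (1.88%) and Atopostipes (0.0207%), and salidroside mouse 4 for the unclassified Aerococcaceae (0.178%). Tyrosol mouse 6 was highest for Staphylococcus (40.6%), Salinicoccus (4.92%) and the unclassified Staphylococcaceae (2.23%), and tyrosol mouse 3 for Facklamia (0.629%) and the unclassified Aerococcaceae (0.0976%). Hydroxytyrosol mouse 3 was highest for Aerococcus (9.23%) and Salinicoccus (0.567%), and hydroxytyrosol mouse 5 for Atopostipes (8.15%) and Facklamia (0.30%).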

How the results depend on the processing

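Of the called members, Jeotgalicoccus (log2 fold change 4.95 to 7.99 when a mouse was left out) and Macrococcus (4.65 to 9.43) kept their direction in model against control mice under all alternatives run, but both passed the low-count filter through the model mice, so this is no sign of stability. The number of called member genera in that comparison, 2, was 4 by DESeq2, 4 with a minimum of 50 counts, 0 with no low-count filter and 0 to 3 without single mice (0 without control mouse 2 or 4, 3 without control mouse 6). For hydroxytyrosol against model, the 1 called was 0 with a minimum of 50 counts, in the rarefied table, and 0 to 1 without single mice. DESeq2 called 2 for hydroxytyrosol against tyrosol and 1 for salidroside against hydroxytyrosol. Families called between model and control mice were 0 to 1 without single mice (1 without control mouse 6).

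With no low-count filter 0 member ASVs were called in every comparison. With all 30 mice in 1 model there were 16 for model against control, 1 for salidroside against model, 23 for hydroxytyrosol against model, 25 for hydroxytyrosol against tyrosol and 25 for salidroside against hydroxytyrosol, and the rarefied table gave 3 for model against control, 1 for tyrosol against model and 6 for hydroxytyrosol against tyrosol. Without single mice the counts were 3 to 10 for model against control (10 without control mouse 6, 3 without model mouse 6), 2 to 4 for tyrosol against model, 8 to 18 for hydroxytyrosol against tyrosol (8 or 9 without tyrosol mice 2, 4 or 6) and 0 to 1 for salidroside against hydroxytyrosol (0 without salidroside mouse 4, 5 or 6, and another ASV without mouse 3). Without salidroside mouse 3, 4, 5 or 6, ASV_27040 fell below the count filter and was not tested in that last comparison. The causes of the other moves were not tested.

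The labels do not say that a mouse number pairs the mice, and same-numbered mice of compared groups had correlations of their deviations from -0.41 to 0.47. With the replicate block, called genera were 2 for model against control and 0 for hydroxytyrosol against model (Atopostipes 8.77, adjusted p = 0.0659 by edgeR), and called ASVs were 0 for model against control. Uncalled log2 fold changes turned sign under the block for salidroside against model (Jeotgalicoccus -2.59, Staphylococcus -1.16, Facklamia -1.56, which was -0.22 in the rarefied table), tyrosol against model (Facklamia -0.20), hydroxytyrosol against model (Staphylococcus 0.082, Aerococcus -1.74), salidroside against tyrosol (Jeotgalicoccus -3.11, and -0.070 without TMM) and salidroside against hydroxytyrosol (Staphylococcus -0.31). Jeotgalicoccus in the last comparison also turned to -0.82 without TMM, -0.18 with singleton pairing, -0.73 with all 30 mice, -0.26 in the rarefied table, -0.18 in the unfiltered table and -0.88 under the block.

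Without single mice the sign was not kept by Jeotgalicoccus (-0.56 to 3.02), Staphylococcus (-1.81 to 0.99) and Facklamia (-1.33 to 0.82) in salidroside against model, Facklamia (-1.36 to 1.41) in tyrosol against model, Aerococcus (-1.73 to 0.59) in hydroxytyrosol against model, Jeotgalicoccus (-1.33 to 1.36), Staphylococcus (-2.74 to 0.39) and Facklamia (-1.77 to 1.2) in salidroside against tyrosol, Facklamia (-2.25 to 0.010) in hydroxytyrosol against tyrosol, and Jeotgalicoccus (-2.13 to 1.05), Staphylococcus (-0.98 to 1.93) and Facklamia (-0.43 to 1.99) in salidroside against hydroxytyrosol. The difference in mean share of Aerococcus, model against control, ran from -1.59 to 0.136. The exact permutation p of Aerococcus, salidroside against tyrosol, was 0.0519 without salidroside mouse 2 or any of tyrosol mice 1 to 4. Over the 24 mice on HFru, chosen after seeing the data, Jeotgalicoccus and Aerococcus turned to r = 0.030 and rho = 0.15. Depth limits the members with few counts, such as Macrococcus, Salinicoccus and Facklamia, which had no counts in 5, 3 and 3 control mice.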

Other observations

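In model mouse 6 and hydroxytyrosol mice 4 and 5, Staphylococcus and Aerococcus were scarce beside Jeotgalicoccus. Jeotgalicoccus was 96.6%, 95.3% and 99.2% of the counts of Jeotgalicoccus and Staphylococcus in them, and at most 89.9% in every other mouse. The same 3 mice had 0, 0 and 2 counts of Aerococcus, and the other mouse without Aerococcus was salidroside mouse 2. Hydroxytyrosol mice 4 and 5 also held the most Atopostipes (0.825% and 8.15%) and unclassified Aerococcaceae (1.94% and 2.80%) of all mice, whereas model mouse 6 had 2 counts of Atopostipes, fewer than the 8 mice of the treated groups that held it, and less of the unclassified Aerococcaceae (0.110%) than salidroside mouse 4 (0.178%). The mice were picked for these values, so no test was made.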
